A study of Homo sapiens with 4 samples.

Results

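Telomerase and shelterin are the machines that build and guard chromosome ends, and 10 of their genes were followed here in lung adenocarcinoma (LAD) cells with and without constitutively active AKT1. The 10 genes were picked by name from a set of 60558 Ensembl gene identifiers in each file: TERT, TERC, WRAP53 and RTEL1 for telomerase and its helpers, and TERF1, TERF2, TERF2IP, POT1, TINF2 and ACD for shelterin. They were chosen with earlier results of these data in view, so their differences between myr-AKT1 and vector cells are given as a description, without a test. All 10 had reads in all 4 libraries.

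The libraries came from A549 and HCC827 cells, each transduced with vector or with myr-AKT1. A549 and HCC827 are established human LAD lines, the vector cells are controls transduced without the AKT1 insert, and myr-AKT1 is AKT1 with a myristoylation signal that holds the kinase at the membrane in an active state. Each condition was sequenced as 1 strand-specific library, with 16322183 to 33530317 recovered reads, so no difference below has a replicate check. The labels do not say whether a culture was a clone or a pool. Values are normalized read counts: reads divided by a size factor of the library, and each pair of deposited factors equals the median-of-ratios factors of the 2 libraries of a line. Unless another scale is named, values are therefore compared within a line. The log2 fold change, written below as the log2 ratio, sets the myr-AKT1 value over the vector value unless another pair is named, and its 95% Clopper-Pearson interval covers counting error only, not the spread between cultures or between PCR copies of a molecule.

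Telomerase adds telomeric repeats to chromosome ends. TERT is its reverse transcriptase and TERC its RNA, which carries the template, while WRAP53 (TCAB1) brings the RNA to Cajal bodies and RTEL1 is a helicase that opens telomeric loops. Shelterin coats the repeats: TERF1 and TERF2 bind duplex telomeric DNA, POT1 binds the single-stranded overhang, TINF2 and ACD (TPP1) bridge them, and TERF2IP (RAP1) rides on TERF2. Most somatic cells keep TERT silent, most carcinomas express it, and AKT is known to act on TERT protein by phosphorylation, which RNA sequencing does not read.

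The sequence of TERC is shown because it decides what its read count can mean. TERC lies on chromosome 3, on the minus strand from 169764520 to 169765060 in GRCh38, as a single exon of 541 bases in GENCODE release 44. A second entry of the annotation, Telomerase-vert, covers bases 14 to 451 of the same transcript on the same strand. Both entries are listed in the files, and Telomerase-vert had 0 reads in all 4 libraries. By default HTSeq leaves out reads that touch more than 1 gene, in which case only the first 13 and the last 90 bases could give TERC reads. The part of this overlap in the TERC counts was not tested. In the first line below, capitals mark the template (bases 46 to 56 of the transcript, on chromosome 3 from 169764981 to 169765060 for the whole stretch), and in the second they mark the 90 bases that follow the shared stretch (169764520 to 169764629). The ACA motif at bases 446 to 448, known as the signature of this RNA class, lies 3 bases before the end of the shared stretch, where the mature RNA is known to end.
TERC start: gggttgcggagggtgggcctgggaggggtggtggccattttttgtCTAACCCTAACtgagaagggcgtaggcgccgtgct
TERC end: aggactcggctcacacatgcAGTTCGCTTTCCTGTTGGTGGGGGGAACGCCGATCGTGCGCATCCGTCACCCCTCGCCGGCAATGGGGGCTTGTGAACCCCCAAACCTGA

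**Figure D1:**
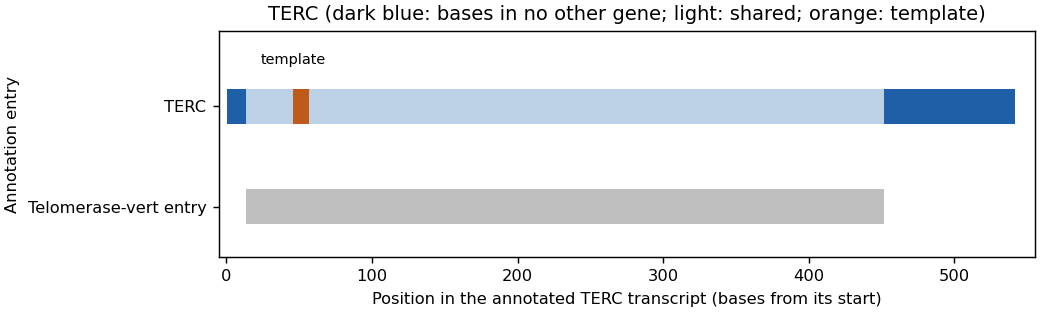
TERC and the Telomerase-vert entry by position in the annotated TERC transcript, in bases from its start. Dark blue marks the 13 and 90 bases that belong to no other gene, light blue the 438 shared bases, and orange the template.

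In the cells, TERT mRNA was far lower with myr-AKT1 in both lines, WRAP53 and ACD were lower by about 2-fold, TERF1 and POT1 were lower by less, and TERF2IP was the only one of the 10 that was higher in both lines. Signs alone were not counted over all genes, so the sign counts that follow have no share of all genes beside them. Among the 10 genes, 6 had a log2 ratio below 0 in both lines, 1 had one above 0 in both and 3 had opposite signs. In none of these 3 did the counting intervals leave 0 on opposite sides, as they did in 14.7% of the 15668 genes tested in both lines, while with total reads or 4-library size factors 1 of them did, TERF2. The counting interval lay below 0 in both lines for 5 of them, where 24.1% of those genes did the same, and above 0 in both for 1, against 17.9% of all genes. A gene was tested when its mean normalized count in the pair was at least 10 and both libraries had a read. The median log2 ratio of the 10 was -0.34 in the A549 pair and -0.52 in the HCC827 pair, beside -0.04 for all 18688 genes tested in A549 and -0.04 for all 17306 in HCC827. More than a 2-fold difference downward was seen for 3 of the 10 in A549 cells, where 9.86% of all genes lay below a log2 ratio of -1, and for 2 of the 10 in HCC827 cells, where 12.4% did. TERT has a mean under 50 in HCC827, and with that stricter filter 1 of the 10 was left there, WRAP53, against 10.3% of all genes. None of the 10 was above a log2 ratio of 1 in either line, where 14.8% of all genes in A549 and 14% in HCC827 were. Past the 4-fold threshold of the study (log2 of 2), 1 of the 10 was lower in each line, TERT, against 2.78% of all genes in A549 and 3% in HCC827.

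**Figure D2:**
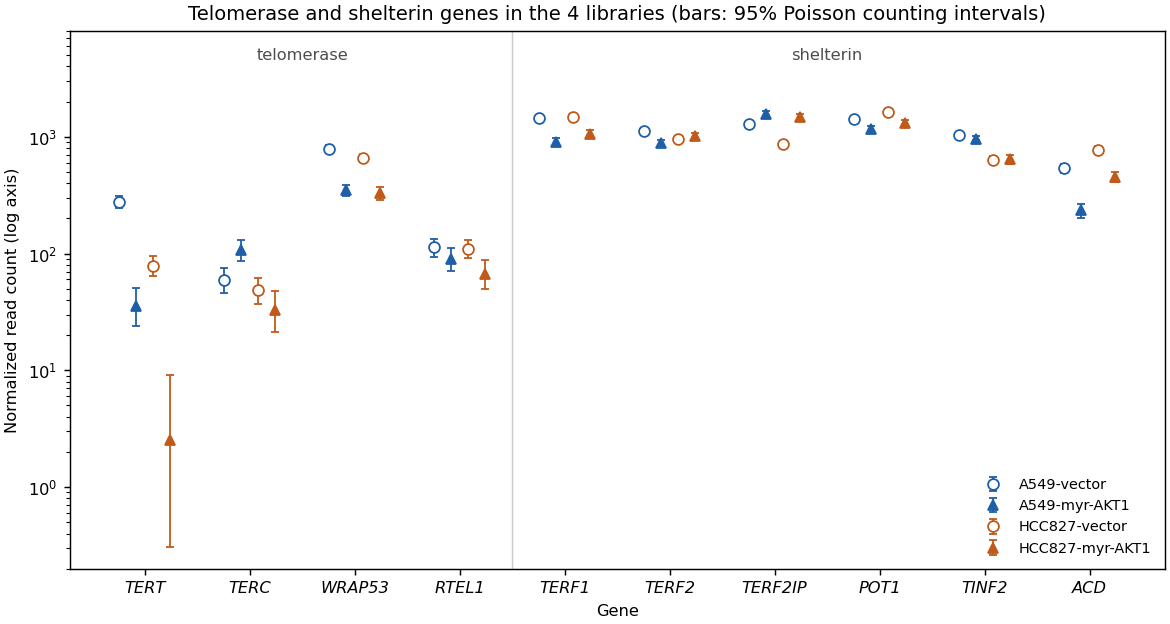
Normalized read count (log axis) of each gene in the 4 libraries, with 95% Poisson counting intervals; open circles are vector, filled triangles myr-AKT1, blue A549 and orange HCC827. TERT spans 276 to 2.52, while the 6 shelterin genes lie between 234 and 1635. Points are comparable within a line.

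TERT (ENSG00000164362, chromosome 5, minus strand, 1253147 to 1295068) had 276 normalized counts in A549-vector cells and 35.5 in A549-myr-AKT1 cells, from 316 and 31 reads. In HCC827 cells it had 78.7 with vector and 2.52 with myr-AKT1, from 99 and 2 reads. In bulk RNA, fewer cells expressing a gene and less of its RNA per cell cannot be told apart. The vector library was the higher in both lines and the counting intervals did not come near 0. The log2 ratio was -2.96 (-3.54 to -2.42) in A549 cells, a 7.77-fold lower value, and -4.97 (-8.03 to -3.08) in HCC827 cells, where 2 reads leave the size open by several powers of 2. Set against TERF2 of the same library, which needs no scaling between libraries, the TERT level per kilobase of exon was 0.234 (0.206 to 0.265) in A549-vector, 0.0383 (0.0259 to 0.0548) in A549-myr-AKT1, 0.0785 (0.0633 to 0.0964) in HCC827-vector and 0.00237 (0.000287 to 0.00859) in HCC827-myr-AKT1. Counted from the lowest log2 ratio, TERT stood at place 176 of 18688 genes in A549 cells and at place 9 of 17306 in HCC827 cells. The HCC827 place rests on 2 reads with myr-AKT1, and TERT passed the filter there only through its vector value. Only genes with reads in both libraries were ranked.

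With size factors set over all 4 libraries, which lets the lines be compared, TERT stood in the order A549-vector (230.2), HCC827-vector (87.5), A549-myr-AKT1 (31.8) and HCC827-myr-AKT1 (2.89). Each step down was larger than its counting error. The control cells of the lines thus differed by 2.63-fold, a log2 ratio of 1.40 (1.07 to 1.74), and the value in A549-myr-AKT1 cells lay below that of HCC827-vector cells. An antisense lncRNA, ENSG00000287486, shares 106 of the 5920 exonic bases of TERT and had 0 reads in all libraries. Transcript forms of TERT that lack catalytic parts are counted under the same identifier and were not separated.

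The reads counted as TERC (ENSG00000270141) did not follow TERT. If reads of the shared stretch were left out, the counted ones come from the first 13 and last 90 bases. Those last 90 bases lie past the known end of the mature RNA, so the counts may not give its level. TERC had 59.4 normalized counts in A549-vector and 106 in A549-myr-AKT1 cells, from 68 and 93 reads. It had 48.5 in HCC827-vector and 32.7 in HCC827-myr-AKT1 cells, from 61 and 26 reads. In A549 the myr-AKT1 library was the higher, with a log2 ratio of 0.84 (0.38 to 1.32). In HCC827 it was -0.57, with an interval of -1.29 to 0.12 that includes 0. On the 4-library scale A549-myr-AKT1 stood above HCC827-vector (95.4 against 53.9), while HCC827-vector, A549-vector (49.6) and HCC827-myr-AKT1 (37.6) did not differ from their neighbours beyond counting error. TERC has no poly(A) tail, and the sources differ on the library: the study's methods describe poly(A) selection and the sample labels describe ribosomal RNA depletion. RN7SL1, another RNA without a tail, took 0.589% to 0.918% of the reads of a library, with log2 ratios of 0.50 in A549 and 0.42 in HCC827. The part of RNA selection in the TERC values was not tested.

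The small Cajal body RNAs are relatives of TERC that share its H/ACA or related boxes and, in part, the WRAP53 protein. Of 11 listed, 6 could be tested in each line, and their median log2 ratio was 0.51 in the A549 pair and 0.06 in the HCC827 pair. SCARNA12 shares every base with another entry on its strand. SCARNA10 has 82 of its 330 bases to itself and SCARNA9 has 204 of 353. Reads of other transcripts may thus be among their counts. As for TERC, the part of overlap and of RNA selection in these values was not tested. In A549, 4 of the 6 had an interval above 0, where 33.1% of all genes did, and 0 lay below. SCARNA5 had 0.88 (0.75 to 1.01), SCARNA6 had 0.82 (0.47 to 1.18) and SCARNA7 had 0.76 (0.69 to 0.83) there, beside 0.84 for TERC. SCARNA10 had 0.27 (0.18 to 0.36), SCARNA9 had 0.03 (-0.25 to 0.31) and SCARNA12 had -0.14 (-0.45 to 0.15). In HCC827, 1 of the 6 lay above 0, against 33.4% of all genes, and 1 below. SCARNA5, SCARNA6 and SCARNA7 had 0.05 (-0.13 to 0.23), -0.37 (-0.78 to 0.04) and 0.27 (0.18 to 0.37) there. SCARNA10, SCARNA9 and SCARNA12 had 0.07 (-0.03 to 0.17), 0.35 (-0.03 to 0.74) and -0.45 (-0.80 to -0.12).

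WRAP53 (ENSG00000141499, chromosome 17, plus strand, 7686071 to 7703502) had 791 normalized counts in A549-vector and 347 in A549-myr-AKT1 cells, and 662 in HCC827-vector and 327 in HCC827-myr-AKT1 cells. It was lower with myr-AKT1 by a similar amount in both lines, with log2 ratios of -1.19 (-1.38 to -1.0) and -1.02 (-1.22 to -0.81), or 2.28-fold and 2.02-fold.

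RTEL1 (ENSG00000258366, chromosome 20, plus strand, 63657810 to 63696253) shares 4522 of its 8542 exonic bases with the readthrough gene RTEL1-TNFRSF6B on the same strand. With the default of HTSeq, reads of those bases would be left out, but the setting used is not known. RTEL1 had 113 normalized counts in A549-vector and 89.3 in A549-myr-AKT1 cells, and 110 in HCC827-vector and 66.7 in HCC827-myr-AKT1 cells. Its log2 ratio was -0.33 in A549, with an interval of -0.76 to 0.08 that includes 0, and -0.72 (-1.20 to -0.25) in HCC827. RTEL1-TNFRSF6B had 55.9 and 66.4 normalized counts in A549-vector and A549-myr-AKT1, and 66.8 and 56.6 in HCC827-vector and HCC827-myr-AKT1.

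**Figure D3:**
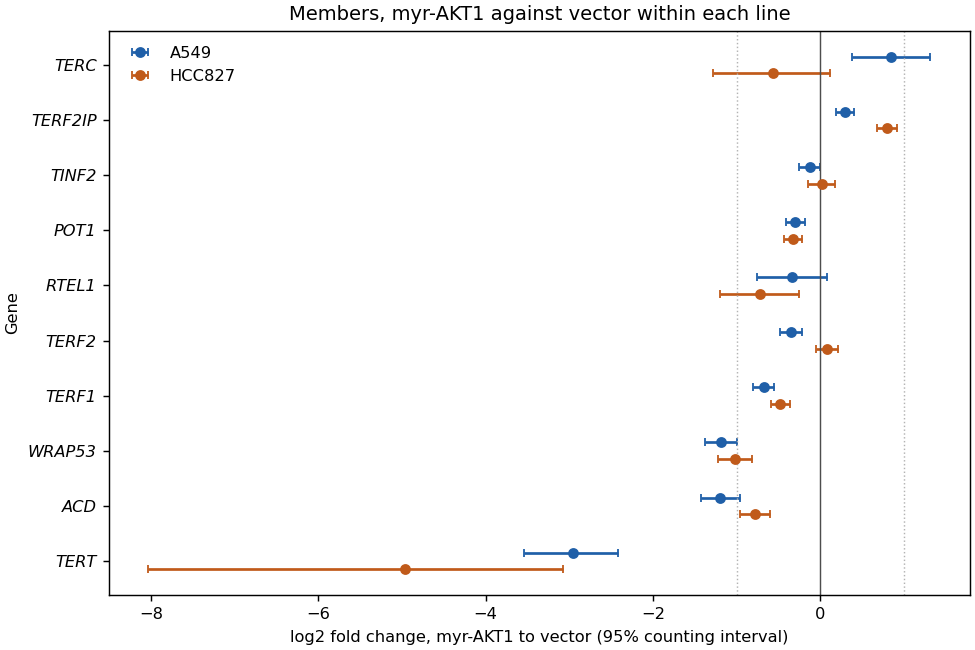
Log2 ratio of myr-AKT1 to vector for each gene in A549 (blue) and HCC827 (orange), with 95% counting intervals; dotted lines mark a 2-fold difference. TERT lies at -2.96 and -4.97, WRAP53 and ACD lie near -1, and TERF2IP is above 0 in both lines.

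The shelterin genes moved unevenly. Their median log2 ratio was -0.32 in A549 cells, where 4 of 6 had an interval below 0 against 36.6% of all genes, and -0.15 in HCC827 cells, where 3 of 6 did against 37.1%. The summed level of the 6 was 6850 normalized counts in A549-vector and 5702 in A549-myr-AKT1, and 6339 in HCC827-vector and 5962 in HCC827-myr-AKT1.

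ACD (ENSG00000102977, chromosome 16, minus strand, 67657512 to 67660810) encodes TPP1, the subunit that recruits telomerase to the chromosome end, and was the lowest of the shelterin genes by fold in both lines. It had 535 normalized counts in A549-vector and 234 in A549-myr-AKT1 cells, and 777 in HCC827-vector and 453 in HCC827-myr-AKT1 cells. The log2 ratios were -1.20 (-1.43 to -0.97) and -0.78 (-0.96 to -0.60). ACD also set the vector libraries apart. On the 4-library scale it was 1.94-fold higher in HCC827-vector than in A549-vector, and the level in HCC827-myr-AKT1 (521) still exceeded that in A549-vector (446.6) beyond counting error.

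POT1 (ENSG00000128513, chromosome 7, minus strand, 124822386 to 124929983), the partner of ACD on the overhang, had 1431 normalized counts in A549-vector and 1163 in A549-myr-AKT1 cells, and 1635 and 1305 in the corresponding HCC827 cells. The difference was small and nearly the same in both lines, with log2 ratios of -0.30 (-0.41 to -0.19) and -0.33 (-0.43 to -0.22). The ratio of POT1 to ACD, per kilobase of exon, was 0.987 (0.899 to 1.085) in A549-vector and 1.84 (1.58 to 2.15) in A549-myr-AKT1. In HCC827 it was 0.777 (0.719 to 0.839) with vector and 1.06 (0.942 to 1.20) with myr-AKT1. The intervals of the vector and myr-AKT1 ratios did not overlap in either line. The antisense lncRNA POT1-AS1 shares 111 of the 8717 exonic bases of POT1 and had at most 159 normalized counts.

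TERF1 (ENSG00000147601, chromosome 8, plus strand, 73008856 to 73048123) had 1444 normalized counts in A549-vector and 901 in A549-myr-AKT1 cells, and 1478 and 1062 in the HCC827 cells. Its log2 ratios were -0.68 (-0.80 to -0.56) and -0.48 (-0.60 to -0.36). TERF1 is the only one of the 10 genes that shares no exonic base with another gene.

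TERF2 (ENSG00000132604, chromosome 16, minus strand, 69355567 to 69408571), its paralog, had 1121 in A549-vector and 882 in A549-myr-AKT1 cells, a log2 ratio of -0.35 (-0.48 to -0.22). In HCC827 it had 954 with vector and 1010 with myr-AKT1, and the log2 ratio of 0.08 had an interval of -0.05 to 0.21 that includes 0. With other scalings that interval lay above 0, at 0.16 (0.03 to 0.29) with total reads and 0.13 (0.00116 to 0.26) with 4-library size factors. Per kilobase, the ratio of TERF1 to TERF2 was 0.462 (0.429 to 0.497) in A549-vector and 0.367 (0.332 to 0.406) in A549-myr-AKT1, and it was 0.556 (0.517 to 0.598) in HCC827-vector and 0.377 (0.342 to 0.416) in HCC827-myr-AKT1. The ratio was the lower in the myr-AKT1 library of each line, beyond counting error.

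TERF2IP (ENSG00000166848, chromosome 16, plus strand, 75647773 to 75761872) encodes RAP1, which binds TERF2 and is also known outside telomeres as a partner in NF-kB signalling. It went the other way. It had 1281 normalized counts in A549-vector and 1572 in A549-myr-AKT1 cells, and 858 in HCC827-vector and 1487 in HCC827-myr-AKT1 cells. The log2 ratio was 0.30 (0.19 to 0.40) in A549 and 0.79 (0.67 to 0.91) in HCC827, and both myr-AKT1 libraries stood above both vector libraries on the 4-library scale, at 1711 and 1408 against 1069 and 954.5. It overlaps KARS1 on the opposite strand over 176 of 4422 exonic bases, and KARS1 had 6902 normalized counts in A549-vector and 3684 in A549-myr-AKT1, and 5372 and 4150 in the HCC827 cells.

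TINF2 (ENSG00000092330, chromosome 14, minus strand, 24238286 to 24242663), the hub that ties the duplex-binding subunits to ACD, stayed closest to 0. It had 1037 normalized counts in A549-vector and 949 in A549-myr-AKT1 cells, for a log2 ratio of -0.13 (-0.26 to 0.001), and 637 and 644 in the HCC827 cells, with 0.02 (-0.15 to 0.18). Both intervals reach 0. Of its 4378 exonic bases, 957 lie opposite GMPR2, which had 1716 and 1820 normalized counts in A549-vector and A549-myr-AKT1, and 1101 and 1188 in the HCC827 cells. The strand setting of HTSeq is not given in the sources used here, so reads of bases shared between strands may not have been told apart. The vector libraries of the lines differed beyond counting error, with a log2 ratio of A549-vector to HCC827-vector of 0.29 (0.16 to 0.42).

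Between the control libraries of the lines, 3 of the 10 genes were higher in A549-vector than in HCC827-vector beyond counting error (TERT, TERF2IP and TINF2), and 6 were lower (WRAP53, RTEL1, TERF1, TERF2, POT1 and ACD). Of the 17367 genes tested between these libraries, 39.8% were higher and 39.7% lower by the same measure. TERC differed by less than its counting error, with a log2 ratio of -0.12 (-0.64 to 0.40). With 1 library per line, culture and line cannot be told apart. Per kilobase of exon on the 4-library scale, TERF2IP had the highest level of the 9 genes other than TERC in A549-vector at 242, followed by TINF2 at 198, TERF2 at 166, ACD at 139 and POT1 at 137, while TERT had 38.9. In HCC827-vector ACD led at 269, followed by TERF2IP at 216 and POT1 at 209, and TERT had 14.8. The place of TERC depends on which bases were counted: over its 541 bases it had 91.6 in A549-vector and 99.7 in HCC827-vector, and over the 103 bases of its own it would have 481 and 523. Exon lengths are the union over all annotated transcripts, so retained introns lower the level of a gene such as TERF1, with 15706 bases.

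**Figure D4:**
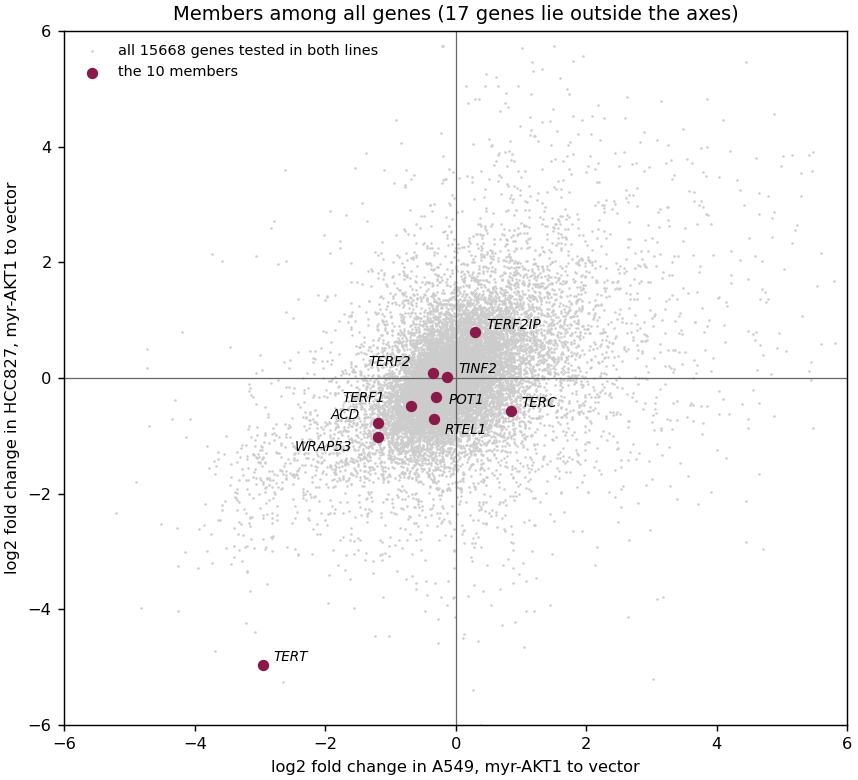
Log2 ratio in A549 (x axis) against HCC827 (y axis) for the 10 genes among the 15668 genes tested in both lines, shown as grey points; 17 of them lie outside the axes. TERT sits at the lower left edge, WRAP53 and ACD are lower in both lines, and TERC lies on opposite sides of 0.

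The genes whose 3 values (the log2 ratio in each line and the log2 ratio of the vector libraries) lay closest to those of TERT, among 15608 genes, were H2AC4, H3C2 and UHRF1. H2AC4 and H3C2 encode replication-dependent histones, and UHRF1 is a factor of DNA methylation at the replication fork. H2AC4 had log2 ratios of -3.21 in A549 and -3.34 in HCC827, and UHRF1 had -3.15 and -3.69. Their Euclidean distances from TERT were 1.64 to 2.02 log2 units, so none of them was near. For TERC the closest were GBE1, ANKRD37 and the lncRNA ENSG00000260430, at distances of 0.0687 to 0.106. With 3 values per gene this likeness is a description only.

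The rest of the telomere pathway was read from lists of 71 further genes, of which 64 could be tested in both lines. The interval lay below 0 in both lines for 41 of the 64 and above 0 in both for 4, against 24.1% and 17.9% of all genes. Counting intervals are narrower in genes with more reads. The shares of all genes, here and in the other paragraphs, were not matched on read depth. Lower by more than 2-fold in both lines were 9 of the 64, where 4.07% of all genes were, and 1 was higher by more than 2-fold in both, where 4.52% were.

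**Figure D5:**
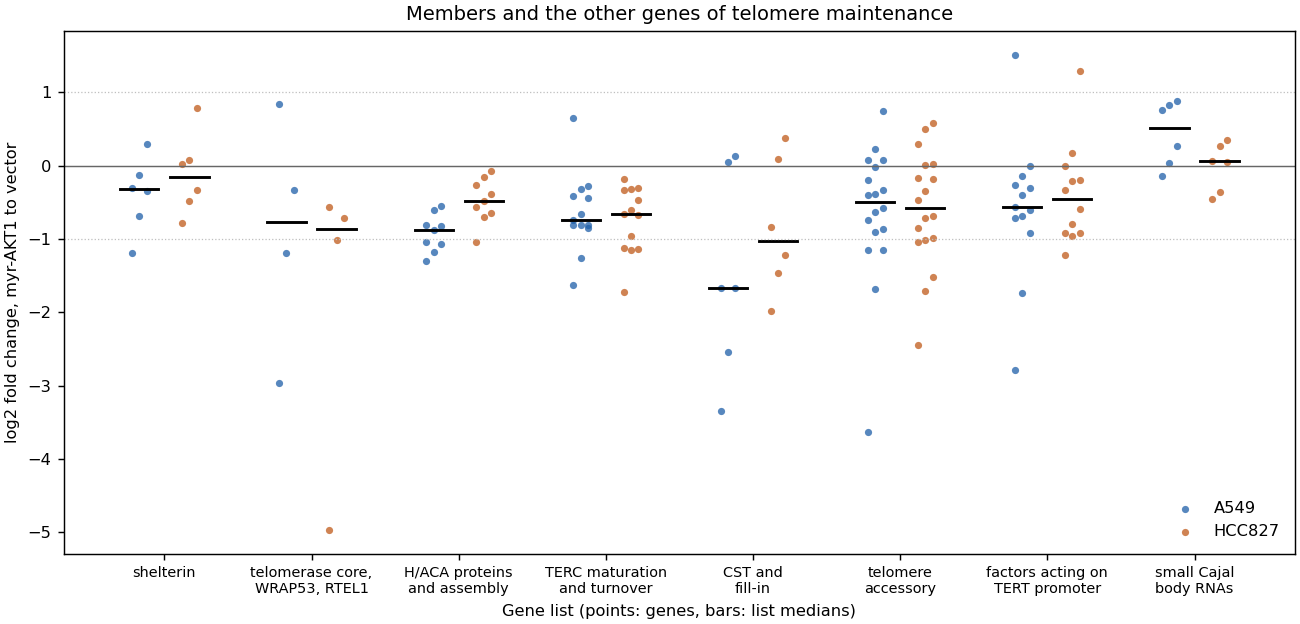
Log2 ratio of myr-AKT1 to vector for every tested gene of each list in A549 (blue) and HCC827 (orange), with black bars for list medians and dotted lines at a 2-fold difference. The H/ACA proteins lie below 0 in both lines, and the small Cajal body RNAs lie mostly above 0 in A549.

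Dyskerin and its partners hold TERC in the telomerase particle and also serve the snoRNAs of ribosome synthesis. All 9 genes of the H/ACA proteins and their assembly factors had log2 ratios below 0 in both lines, with medians of -0.88 in A549 and -0.48 in HCC827, and the interval lay below 0 for 9 of 9 in A549, against 36.6% of all genes, and 6 of 9 in HCC827, against 37.1%. DKC1, which encodes dyskerin, had 2748 normalized counts in A549-vector and 1115 in A549-myr-AKT1 cells, and 5297 and 2576 in the HCC827 cells, with log2 ratios of -1.30 (-1.41 to -1.20) and -1.04 (-1.11 to -0.97). NHP2 had -1.18 (-1.27 to -1.09) and -0.48 (-0.62 to -0.34). GAR1 had -1.06 (-1.36 to -0.77) in A549, and its -0.16 in HCC827 had an interval of -0.49 to 0.17 that includes 0. RUVBL1 and RUVBL2, the ATPases that help assemble these particles, had -0.82 and -1.04 in A549 and -0.71 and -0.65 in HCC827.

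The 13 genes of TERC 3' end maturation, capping and turnover had medians of -0.74 in A549 and -0.66 in HCC827, and 12 of the 13 had intervals below 0 in both lines, against 24.1% of all genes. TOE1, a deadenylase that trims small RNAs including TERC, had 476 and 153 normalized counts in A549-vector and A549-myr-AKT1, and 499 and 151 in the HCC827 cells. Its log2 ratios of -1.63 (-1.92 to -1.36) and -1.72 (-2.02 to -1.44) were the lowest of that list in both lines. PARN, the deadenylase best known for maturing TERC, had -0.44 (-0.52 to -0.37) and -0.18 (-0.31 to -0.06). TENT4B, the poly(A) polymerase that opposes it, had -0.32 (-0.43 to -0.21) and -0.68 (-0.79 to -0.57). TGS1, which modifies the TERC cap, had -0.66 and -1.15, and XRN1, a 5' exonuclease, was the exception with 0.65 (0.58 to 0.73) in A549.

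The CST complex caps the overhang and calls in DNA polymerase alpha to fill in the C-rich strand. Here the subunits and the polymerase parted. CTC1 had 0.06 (-0.09 to 0.20) in A549 and 0.38 (0.23 to 0.53) in HCC827, and STN1 had 0.13 (0.01 to 0.25) and 0.09 (-0.11 to 0.28). TEN1, which shares most of its exonic bases with other genes on its strand, had 11 and 4 reads in A549-vector and A549-myr-AKT1 and 5 and 0 in the HCC827 cells, too few for a value. The 4 genes of polymerase alpha and primase were lower in both lines. Of the 6 genes of this list tested in both lines, these 4 had intervals below 0 in both, against 24.1% of all genes. PRIM1 had 1168 and 115 normalized counts in A549-vector and A549-myr-AKT1, a log2 ratio of -3.35 (-3.66 to -3.06), and -1.98 (-2.24 to -1.74) in HCC827. POLA1 had -1.67 and -1.47, PRIM2 had -1.67 and -1.22, and POLA2 had -2.55 and -0.84. All 4 also serve bulk DNA replication, and the share of cycling cells in each culture was not measured.

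Among 18 telomere accessory proteins the medians were -0.49 in A549 and -0.57 in HCC827. BLM, a helicase of the replication fork, was the lowest, with -3.64 (-3.90 to -3.38) and -2.45 (-2.69 to -2.22). RIF1, which binds damaged telomeres and times replication, had -0.86 and -1.71, and PINX1, a known inhibitor of telomerase, had -1.15 (-1.43 to -0.87) and -1.52 (-1.84 to -1.22). DCLRE1B (Apollo), a nuclease recruited by TERF2, had -1.68 and -0.68. The tankyrases, which remove TERF1 from telomeres, went the other way by small amounts. TNKS had 0.08 (0.01 to 0.15) and 0.50 (0.40 to 0.60), and TNKS2 had 0.23 (0.16 to 0.31) and 0.29 (0.21 to 0.38). ATRX, whose loss marks telomere lengthening without telomerase, had 0.07 in A549 and -0.98 (-1.04 to -0.93) in HCC827.

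Of 13 transcription factors known to act on the TERT promoter, 11 of 13 tested in A549 had an interval below 0, against 36.6% of all genes, and 9 of 12 tested in HCC827, against 37.1%, with medians of -0.56 and -0.46. WT1 had 0 reads in both HCC827 libraries and was not tested there. MYC, an activator that binds E-boxes with MAX, had 5331 and 1595 normalized counts in A549-vector and A549-myr-AKT1, a log2 ratio of -1.74 (-1.83 to -1.66), and 4302 and 3741 in the HCC827 cells, with -0.20 (-0.27 to -0.14). MXD1, which competes with MYC for MAX at these sites, was the gene above 2-fold in both lines, with 112 and 318 normalized counts in A549-vector and A549-myr-AKT1 and 528 and 1291 in the HCC827 cells, or 1.51 (1.20 to 1.82) and 1.29 (1.15 to 1.43). MAX did not differ beyond counting error, with 0.00 (-0.12 to 0.11) and 0.00 (-0.12 to 0.12). E2F1 had -2.79 and -0.95, ETS1 had -0.60 and -0.92, and CTCF had -0.92 in both. The part of these factors in the TERT values was not tested.

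RefSeq upstream windows of 250 bases (GRCh38.p14) were at hand for 7 of the 10 genes, as 11 windows. On either strand, the E-box letters CACGTG stood in 1 of them, that of TERT, 163 bases before the start, and in 6.34% of all 35116 windows. The GC box letters GGGCGG, the site of SP1, stood in 8 of the 11 windows (those of TERT, ACD, POT1 and TERF2IP, both of TINF2, and 1 each of RTEL1 and WRAP53) and in 42.6% of all windows. The CCAAT letters stood in 3 of the 11, both of TINF2 and 1 of WRAP53, and in 32% of all windows. The windows of TINF2 overlap, and their CCAAT site and a GC box site are the same bases counted in both. Every window but that of TERT overlaps annotated exons. A match of letters is not a bound site, and no binding was measured.

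AKT1, counted without separating the construct from the endogenous gene, had 4243 normalized counts in A549-vector and 6297 in A549-myr-AKT1, a log2 ratio of 0.57 (0.51 to 0.63), and 75.6% of the genes tested in A549 had a lower one. In HCC827 it had 2175 with vector and 4805 with myr-AKT1, a log2 ratio of 1.14 (1.07 to 1.21). CDKN2A, deleted in A549, had 0 reads in both A549 libraries, and EGFR, amplified in HCC827, had at most 8454 normalized counts in A549 and at least 68423 in HCC827. All 6 epithelial markers had reads in every library, and the sum of their normalized counts, in A549 mostly from KRT8 and KRT18, was 168605 with myr-AKT1 and 194098 with vector in A549, and 87555 and 162504 in HCC827. By gene, 4 of the 6 had intervals above 0 in A549 (EPCAM, CDH1, KRT7 and KRT19) and 1 of the 6 in HCC827 (CDH1), with the others below 0. Of all genes, 33.1% in A549 and 33.4% in HCC827 had intervals above 0, and 36.6% and 37.1% had them below 0. Of the 4 distal lung markers, 3 had an interval below 0 in HCC827, against 37.1% of all genes. Their log2 ratios there were -0.84 for NKX2-1, -0.84 for NAPSA and -3.73 for SFTPB. SFTPB had 42 reads in HCC827-vector and 2 in HCC827-myr-AKT1, and 0 in A549. In A549-vector and A549-myr-AKT1, NAPSA had 48 and 30 reads and NKX2-1 had 0 and 8. SFTPC was at 0 in every library. By sum, markers of other cell types were higher with myr-AKT1 in both lines, but not gene by gene. CD68 did not differ in HCC827, and PDGFRB, with at most 6 reads, was lower with myr-AKT1 in both lines. The 4 leukocyte markers summed to 814 against 37.6 normalized counts in A549 and 101 against 34.97 in HCC827, mostly from CD14, while CD3E was at 0 everywhere and PTPRC had at most 8.02. The 4 endothelial markers summed to 137 against 14.0 and 203 against 81.9, mostly from PECAM1 and CDH5 in A549 and PECAM1 and KDR in HCC827. The 5 fibroblast markers summed to 828 against 125 and 184 against 51.7, mostly from COL1A1, with COL1A2 at 0 everywhere. Their part in the values of telomerase and shelterin genes was not tested.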

How the data were processed

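Strand-specific RNA sequencing of 4 libraries was analysed, 1 per condition. The authors trimmed and masked the reads, mapped them to hg38 with Bowtie2 and counted them per Ensembl gene with HTSeq (strand setting and annotation not given in the sources used here). Their methods name RPKM, yet the deposited values are a signal in which whole reads were scaled by a library's size factor. Reads were recovered by dividing by the smallest value of the library, and 100% of values in the myr-AKT1 libraries and all but 1 value in each vector library came out whole within 0.001. Genes were named from GENCODE release 44 (297 of 60558 identifiers without a name), which also gave positions, exon unions and overlaps. Of 1282 genes that share every exonic base on their own strand, 18.9% had reads, of 769 that share every base with the opposite strand only, 39.4%, and of 42045 that share none, 46.9%. More than 100 reads, summed over the 4 libraries, were seen for 2.42%, 2.86% and 18.9% of these genes, in the same order.

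Fold changes used the deposited values without a pseudocount. Clopper-Pearson intervals came from recovered reads; on 4000 simulated pairs, 96.6% held the true value. A fit over all 4 libraries with cell line as a block (limma on log2(value + 1), trend, filterByExpr, Benjamini-Hochberg) called 585 of 19314 genes with 1 residual degree of freedom, and edgeR (quasi-likelihood test, recovered reads) called 424. On simulated reads with 200 genes changed 4-fold among 19314, limma recovered 191 with 34 false calls, edgeR 200 with 5 and DESeq2 181 with 159. No p is given for the 10 genes, because they, the lists and the alternatives were chosen with earlier results of these data known. Genes named are the 10, the genes that share exons with them, the list genes and the 3 closest to TERT and TERC; some results are not reported here. Alternatives were other scalings, filters, thresholds and pseudocounts. Tools were Python 3.11.15 (scipy 1.17.1, pandas 2.3.3, numpy 2.4.6, matplotlib 3.10.9) and R 4.3.3 (DESeq2 1.42.0, edgeR 4.0.16, limma 3.58.1).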

Additional observations from a re-analysis of the deposited data

Results flagged for a closer look

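TERC, TERF2 and TINF2 had a log2 ratio of myr-AKT1 to vector above 0 in 1 line and below 0 in the other, and whether the lines differ was not tested. TERC had 0.843 in A549 and -0.567 in HCC827, TERF2 had -0.347 and 0.0834, and TINF2 had -0.128 and 0.0173. Among the further genes of the telomere lists, 3 of the 64 tested in both lines had counting intervals on opposite sides of 0, where 14.7% of all genes did, again with no test between the lines. XRN1 had 0.655 in A549 and -0.304 in HCC827, ATRX had 0.0713 and -0.983, and SP1 had -0.398 and 0.179.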

How the results depend on the processing

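All 80 alternative log2 fold changes of the 10 genes (other scalings and a pseudocount of 1) and all 20 alternative ratios between the vector libraries stayed within the counting interval of the reported value. Size factors over all 4 libraries raised every A549 log2 fold change by 0.10 and every HCC827 one by 0.05. The count of genes past 2-fold, 3 in A549 and 2 in HCC827, was 1 in each line at the 4-fold threshold. In HCC827 it was 1 with total reads, 1 with 4-library size factors, where WRAP53 no longer passed, and 1 with a mean of at least 50, where TERT left the count. The A549 median became -0.68 over genes without exonic overlap, which leaves TERF1 alone. The 585 genes called over all 4 libraries became 1139 with DESeq2, 1995 with all genes that had a read and 303 with a pseudocount of 0.5. Without the cell line as a block, limma called 0 genes, with 631 at an unadjusted p under 0.05. The labels give no replicate numbers, and the block pairs libraries of the same line. Leaving out a library leaves no residual degrees of freedom. Depth limits TERT in HCC827-myr-AKT1 (2 reads) and TERC (26 to 93 reads) most.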

Other observations

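Of the small Cajal body RNAs, SCARNA2, SCARNA13, SCARNA16 and SCARNA17 are listed at 0 in every library, and of the other RNAs without a poly(A) tail so are RPPH1 and RN7SK. All of these share every exonic base with another entry on the same strand. RMRP is also at 0 in every library but shares no base, and RMRP RNA is known to be abundant in growing cells. SCARNA12 shares every base and still had 133 to 200 normalized counts. Among RNAs without a poly(A) tail that have bases of their own, RNY1 had log2 fold changes of -0.26 (-0.59 to 0.07) in A549 and -0.09 (-0.71 to 0.51) in HCC827, while RNY3 and VTRNA1-1 had 8 reads or fewer in every library.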
